A study of Sus scrofa with 6 samples.

Results

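Pre-mRNA splicing is carried out by the spliceosome, and the choice between alternative exons is set largely by proteins that bind the transcript. SR proteins, named for a domain rich in serine and arginine, mostly bind exons and favor their inclusion, whereas heterogeneous nuclear ribonucleoproteins (hnRNPs) often act against it. The U2AF proteins and the SF3A and SF3B subunits of the U2 particle recognize the 3′ end of the intron and its branch point. In heart and skeletal muscle, the MBNL, CELF, RBFOX and QKI proteins set the developmental splicing of sarcomere and calcium handling transcripts. The expression of the genes for these factors was compared here in the pressure-overloaded ventricle.

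The 47 genes were taken by symbol from the 13288 genes of the deposited table. They are all genes whose symbol starts with SRSF, HNRNP, SF3A, SF3B, MBNL, CELF, RBFOX or U2AF, together with QKI, PTBP1, PTBP2, TRA2A and TRA2B. Ventricular tissue came from male Tibetan minipigs, 3 with sham surgery and 3 with descending aortic constriction (DAC), a chronic pressure overload of the left ventricle. The experiment ended 12 weeks after surgery, and each of the 6 samples is 1 minipig. By the numbers in the sample titles, the sham minipigs are replicates 1, 2 and 3 and the DAC minipigs are replicates 4, 5 and 6. Values are FPKM, fragments scaled to the length of the transcript and to the mapped fragments of the library, which allow levels of different genes to be set side by side. Gene-level FPKM adds all isoforms of a gene, so it measures how much of a splicing factor's RNA is present and not how any transcript was spliced.

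Differences are given as log2 fold changes, the DAC mean minus the sham mean of log2(FPKM + 1). On this scale the change of a weakly expressed gene is understated. They were tested with limma over the 11029 genes that reached 1 FPKM in 3 or more samples. RBFOX3 did not pass this minimum, and the other 46 genes did. DEG, for differentially expressed gene, here means that limma's P before adjustment was under 0.05. No gene of the table passed this threshold after adjustment, where the lowest value was 0.106 (adjusted P, limma). Of all genes tested, 358 were upregulated and 581 downregulated DEGs, and with the mitochondrially encoded genes left out these counts were 502 and 408. The sum of FPKM was between 281377 and 308771 per sample, and the read depth behind the values is unknown. Mitochondrially encoded genes held between 24.0% and 25.3% of it in the sham samples, 27.2% and 27.1% in DAC replicates 4 and 6, and 32.8% in DAC replicate 5. Of 10 fibroblast markers, 5 were upregulated DEGs, and their summed FPKM was between 514 and 592 in the sham samples and between 734 and 823 in the DAC samples. The summed FPKM of the 10 cardiomyocyte markers in the table overlapped between the groups, from 16948 to 17920 in sham and from 16150 to 19274 in DAC. Of these markers 1 was a downregulated DEG, RYR2, the same gene that is followed below among transcripts spliced in muscle. Of 9 endothelial markers, 1 was an upregulated and 2 were downregulated DEGs, with sums from 172 to 242 FPKM in sham and from 147 to 220 FPKM in DAC. The part of these shifts in the values below was not tested, and in bulk tissue fewer cells of a type cannot be told apart from less RNA per cell.

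The splicing factor genes were well expressed in the minipig ventricle. Their median sham mean was 16.7 FPKM, against 6.01 FPKM over all genes tested. Together they held 0.397% ± 0.0186 (SD, n = 3) of the summed FPKM in the sham group and 0.424% ± 0.0472 (SD, n = 3) in the DAC group. The most abundant were HNRNPA1, with a sham mean of 121 FPKM, HNRNPA2B1 with 97.4 FPKM and HNRNPK with 83.0 FPKM, all abundant nuclear RNA-binding proteins. HNRNPUL1 followed with 55.5 FPKM. Among the SR genes, SRSF2 was by far the highest with a sham mean of 51.2 FPKM, and SRSF9 the lowest with 3.25 FPKM. In the group for the 3′ splice site, the sham means were between 2.96 FPKM for U2AF1L4, a relative of the small U2AF subunit, and 41.5 FPKM for U2AF2, the large subunit. QKI, an RNA-binding protein of the STAR family, led the muscle regulators with 43.8 FPKM. Of the 46 genes tested, 16 varied more within the groups than the median of all genes tested. The median within-group SD of the 46 genes was 0.13 on the log2 scale, against 0.18 over all genes tested.

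**Figure D1:**
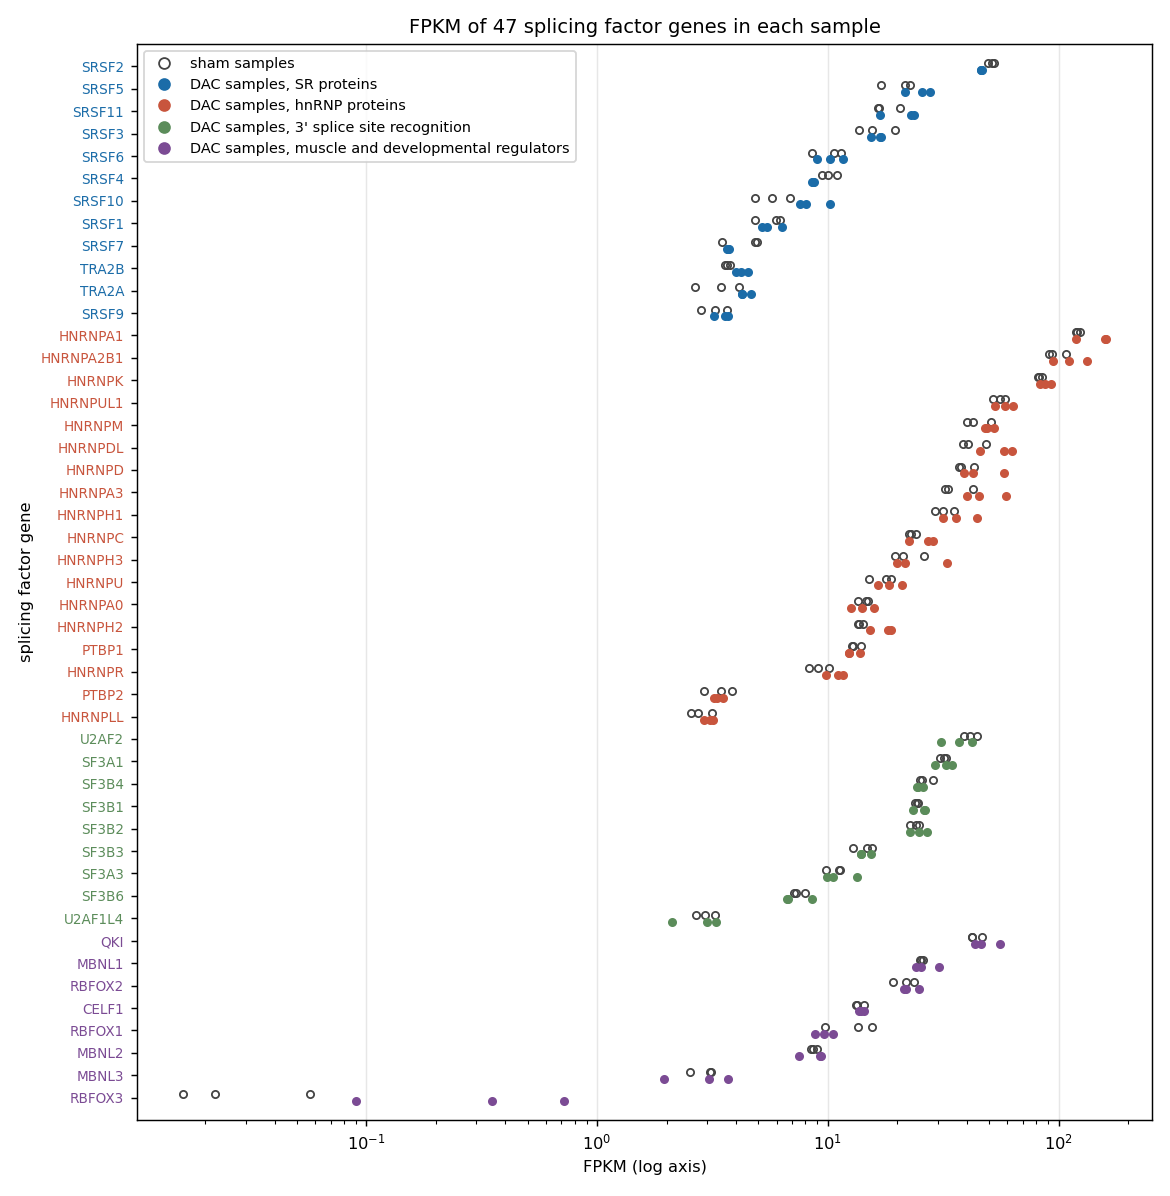
FPKM of the 47 splicing factor genes on a log axis, with open points for the 3 sham samples and filled points for the 3 DAC samples, colored by family and ordered by the sham mean within each family. HNRNPA1, HNRNPA2B1 and HNRNPK were the highest, RBFOX3 was under 1 FPKM in every sample, and for most genes the points of the groups overlapped.

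Comparing DAC with sham, 3 of the 46 genes tested were upregulated DEGs, namely SRSF10, HNRNPH2 and HNRNPDL, and 0 were downregulated DEGs. This is 6.52% upregulated, against 3.25% of all genes tested, and for the downregulated direction the share over all genes was 5.27%. The lowest adjusted P among the 46 genes was 0.522 (limma with Benjamini-Hochberg adjustment), so none would pass a threshold of 0.05 after adjustment. DAC had the higher mean in 34 of the 46 genes, or 73.9%, against 46.6% of all genes tested. Their median log2 fold change was 0.063, against -0.016 over all genes tested, and the median standard error (SE) of these genes was 0.12. Leaving out DAC replicate 6 raised their median to 0.11, against -0.030 over all genes. Estimating the variance gene by gene, 3 genes were upregulated (3.25% of all genes tested) and 2 were downregulated DEGs (4.81%). The downregulated genes were SRSF2 and SRSF4, and the identity of the SRSF4 values is uncertain, as described below. Quantile normalization gave 5 upregulated genes against 3.79% of all genes, and leaving out the mitochondrially encoded genes also gave 5, against 4.56%.

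The count of upregulated genes rested on single minipigs. It was 0 when sham replicate 1 was left out (2.19% of all genes tested) and 1 when sham replicate 3 (2.21%) or DAC replicate 5 (4.26%) was left out. It was 2 leaving out DAC replicate 4 (2.85%), 5 leaving out sham replicate 2 (3.51%) and 6 leaving out DAC replicate 6 (2.96%). A downregulated DEG appeared in 2 of these fits, RBFOX1 without sham replicate 2 (5.82% of all genes) and SRSF7 without sham replicate 3 (3.51%).

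**Figure D2:**
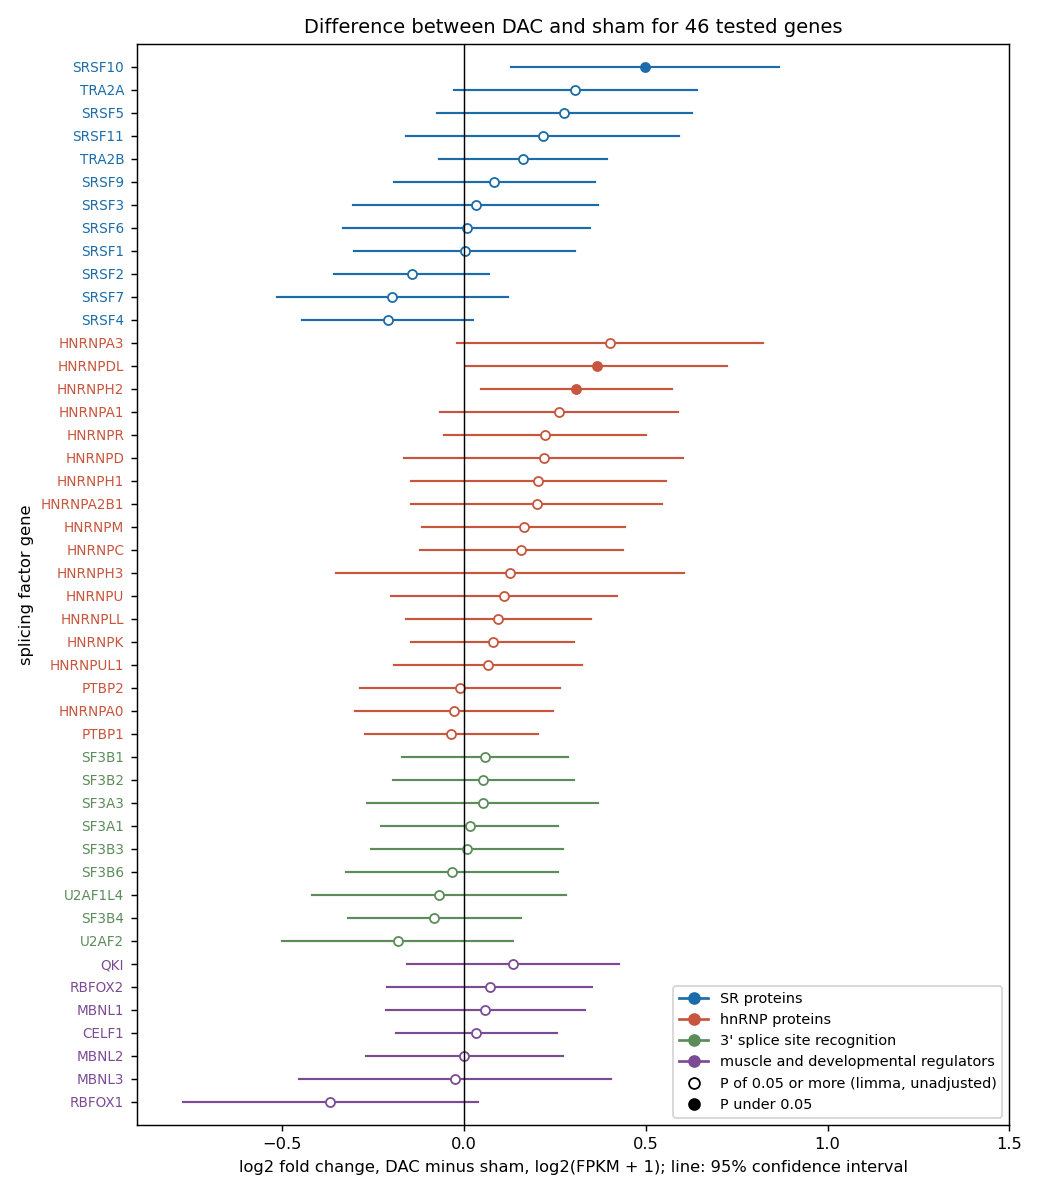
Log2 fold change between DAC and sham for the 46 genes tested, on log2(FPKM + 1), with 95% confidence intervals as lines and filled points for P under 0.05 (limma, unadjusted). The 3 filled points are SRSF10, HNRNPDL and HNRNPH2, and the intervals of the other genes include 0.

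The 4 families are described side by side, and differences between them were not tested. For the hnRNP genes, including PTBP1 and PTBP2, the DAC mean was higher for 15 of 18, with a median log2 fold change of 0.16. For the SR genes, including TRA2A and TRA2B, it was higher for 9 of 12 with a median of 0.058. The 9 genes for the 3′ splice site had a median of 0.0078, and the 7 tested muscle and developmental regulators a median of 0.033. Single minipigs moved these medians. The hnRNP median was 0.084 without DAC replicate 4 and 0.25 without sham replicate 2, while 14 to 16 of the 18 genes had the higher mean in DAC whichever minipig was left out. Leaving out sham replicate 3 lowered the SR median to 0.036, and leaving out sham replicate 2 or DAC replicate 6 raised it to 0.12 or 0.11. The 3′ splice site median changed with every minipig left out, from -0.040 without DAC replicate 5 to 0.033 without DAC replicate 6, and was also below 0 without sham replicate 1 or 2. The median of the muscle regulators fell to 0.0047 when DAC replicate 4 was left out and rose to 0.093 when DAC replicate 5 was, and leaving out sham replicate 1 or 3 gave 0.014 or 0.019. The share of hnRNP genes in the summed FPKM of the 47 genes was 58.4%, 59.9% and 58.9% in sham replicates 1 to 3 and 63.2%, 62.3% and 60.7% in DAC replicates 4 to 6. The share of the 3′ splice site genes was 16.5%, 15.4% and 16.7% in the sham samples and 13.7%, 14.9% and 14.9% in the DAC samples. Within these 47 genes the groups did not overlap in either share, but they overlapped in the summed FPKM of both families. The shares leave out HNRNPL, HNRNPUL2 and U2AF1, which have no symbol in the deposited table. Their sham means were 78.9, 34.7 and 16.4 FPKM, so the separation need not hold with them added. For the hnRNP genes the sums were from 640 to 710 FPKM in sham and from 682 to 849 FPKM in DAC. For the 3′ splice site genes they were from 181 to 187 FPKM in sham and from 167 to 188 FPKM in DAC. A share also depends on the sum of the other families. The shares and sums describe the samples and were not tested.

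SRSF10 had the largest log2 fold change of the SR genes. It encodes an SR protein that represses splicing when it is dephosphorylated, as after heat shock or in mitosis. SRSF10 (ENSSSCG00000036293, chromosome 6 from 81727896 to 81741497 on susScr11) was at 4.84, 6.86 and 5.75 FPKM in sham replicates 1 to 3 and at 10.2, 8.04 and 7.60 FPKM in DAC replicates 4 to 6. All DAC samples lay above all sham samples, and DAC replicate 4 was the highest. The mean was 5.82 ± 1.01 FPKM (SD, n = 3) in sham and 8.62 ± 1.39 FPKM (SD, n = 3) in DAC, a ratio of 1.48. The log2 fold change was 0.50 (SE 0.16, 95% confidence interval 0.13 to 0.87, adjusted P = 0.522 from limma). SRSF10 remained an upregulated DEG with each minipig left out in turn, except without sham replicate 1, where its log2 fold change was 0.39. Its position overlaps the last part of LYPLA2 on the other strand, and LYPLA2 was at 13.6 FPKM in sham and 11.4 FPKM in DAC.

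The transformer-2 genes TRA2A and TRA2B encode SR-like activators that bind purine-rich exonic enhancers. TRA2A (ENSSSCG00000015387, chromosome 9 from 92294917 to 92323794) was at 3.44, 4.11 and 2.66 FPKM in the sham samples and at 4.67, 4.25 and 4.26 FPKM in the DAC samples. Its log2 fold change was 0.31 (SE 0.14, adjusted P = 0.596 from limma), and it was 0.18 without sham replicate 3, the lowest sample. TRA2B was at 3.76, 3.66 and 3.60 FPKM in the sham samples and at 4.19, 3.99 and 4.52 FPKM in the DAC samples, a log2 fold change of 0.16 (adjusted P = 0.663, limma). In both genes every DAC sample was above every sham sample, as in 6.01% of all genes tested. With 3 minipigs against 3, any such separation has an exact two-sided permutation P of 0.10, the smallest possible. That P therefore adds nothing to the separation itself.

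SRSF2, which binds exonic enhancers and also takes part in the release of paused RNA polymerase II, pointed the other way. SRSF2 (ENSSSCG00000036592, chromosome 12 from 4800624 to 4803764) was at 52.6, 51.6 and 49.3 FPKM in the sham samples and at 45.9, 46.02 and 46.6 FPKM in the DAC samples. The groups did not overlap, and the spread within the DAC group was small, with a mean of 46.2 ± 0.364 FPKM (SD, n = 3) against 51.2 ± 1.71 FPKM (SD, n = 3) in sham. The log2 fold change was -0.14 (SE 0.091, adjusted P = 0.676 from limma). Among the alternatives tried, it was a downregulated DEG only when its variance was estimated from its own values (adjusted P = 0.523, limma).

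SRSF4 was at 9.46, 11.0 and 10.02 FPKM in the sham samples and at 8.51, 8.65 and 8.70 FPKM in the DAC samples, again without overlap (log2 fold change -0.21, adjusted P = 0.596, limma). Among the alternatives tried, SRSF4 was a downregulated DEG only with the variance of each gene on its own (adjusted P = 0.551, limma). The identity of the SRSF4 values is uncertain. The listed position of SRSF4, chromosome 6 from 85891364 to 86131682, also spans MECR in RefSeq, a table of gene identifiers gives its identifier the symbol MECR, and it overlaps EPB41 on the other strand. SRSF7, which also has a role in mRNA export, was at 4.95, 4.84 and 3.49 FPKM in the sham samples and at 3.70, 3.64 and 3.74 FPKM in the DAC samples. Here the DAC samples lay between the sham samples, and SRSF7 was a downregulated DEG without sham replicate 3 (log2 fold change -0.33, adjusted P = 0.841, limma).

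SRSF5, the second most abundant SR gene, was at 22.6, 21.7 and 17.0 FPKM in the sham samples and at 27.7, 25.6 and 21.5 FPKM in the DAC samples. Its log2 fold change was 0.28 (SE 0.15, adjusted P = 0.642 from limma), and DAC replicate 6 lay inside the sham range. SRSF11 had the same order among the DAC samples, with sham samples at 16.7, 20.5 and 16.5 FPKM, DAC replicates 4 and 5 at 23.6 and 22.9 FPKM and DAC replicate 6 at 16.8 FPKM. The other SR genes, SRSF1, SRSF3, SRSF6 and SRSF9, had log2 fold changes between 0.0014 and 0.083. SRSF1, the classical SR protein ASF/SF2, had a 95% confidence interval from -0.30 to 0.30, so a change within that range in either direction remains possible. Sham replicate 3 was the lowest of the 6 samples for 8 of the 12 SR genes, against 13.8% of all genes tested, and without it the mean was higher in DAC for 6 of the 12.

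**Figure D3:**
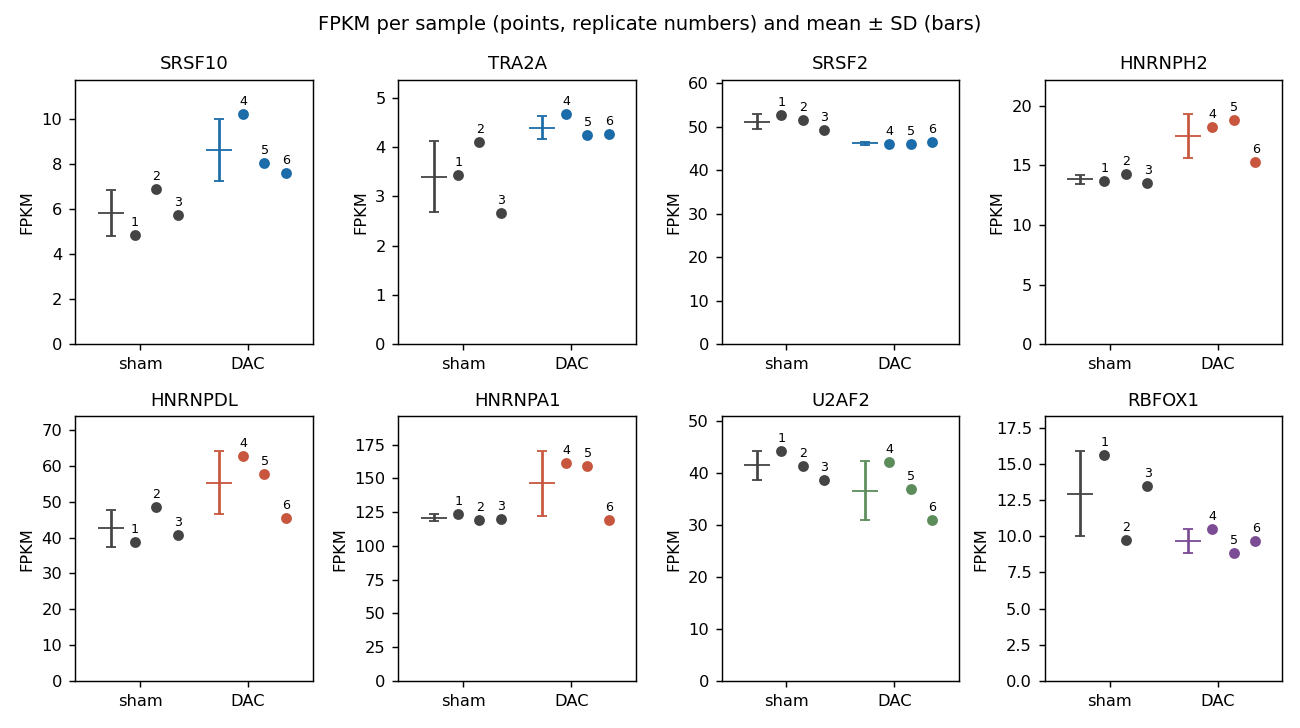
FPKM of 8 splicing factor genes in each sample, with replicate numbers on the points and the mean ± SD of each group as a bar beside them. SRSF10, TRA2A and HNRNPH2 were higher in every DAC sample than in every sham sample, SRSF2 was lower in every DAC sample, and DAC replicate 6 lay near the sham samples for HNRNPDL and HNRNPA1.

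Among the hnRNP genes, HNRNPH2 and HNRNPDL were upregulated DEGs. HNRNPH2 encodes a close relative of hnRNP H1, and both bind runs of guanine in transcripts. HNRNPH2 (ENSSSCG00000033161, chromosome X from 83031791 to 83037871) was at 13.7, 14.3 and 13.5 FPKM in sham replicates 1 to 3 and at 18.2, 18.8 and 15.3 FPKM in DAC replicates 4 to 6. Every DAC sample was above every sham sample. The mean was 13.8 ± 0.389 FPKM (SD, n = 3) in sham and 17.4 ± 1.85 FPKM (SD, n = 3) in DAC, a ratio of 1.26. The log2 fold change was 0.31 (SE 0.11, 95% confidence interval 0.047 to 0.57, adjusted P = 0.553 from limma). It kept its direction with each minipig left out, but it was not a DEG when sham replicate 1, sham replicate 3, DAC replicate 4 or DAC replicate 5 was the one left out, with log2 fold changes between 0.26 and 0.30. Its position overlaps the start of GLA on the other strand, which was at 2.16 FPKM in sham and 2.40 FPKM in DAC.

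HNRNPH1 and HNRNPH3 did not pass the threshold. HNRNPH1 was at 31.7, 35.3 and 29.0 FPKM in the sham samples and at 44.3, 36.0 and 31.5 FPKM in the DAC samples, a log2 fold change of 0.20 (adjusted P = 0.713, limma). HNRNPH3 was at 32.8 FPKM in DAC replicate 4, and its other samples were between 19.6 and 26.1 FPKM. The ratio of HNRNPH2 to HNRNPH1, chosen after the values were seen, was 0.434 ± 0.0308 (SD, n = 3) in sham and 0.472 ± 0.0567 (SD, n = 3) in DAC (exact two-sided permutation P = 0.40). A difference between the paralogs in their change was therefore not shown. Reads shared between such close relatives may have been split between them, since the sources used here do not state how shared reads were counted.

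HNRNPDL, also called JKTBP, is a relative of HNRNPD, and the 2 genes are neighbors on chromosome 8, with 34621 bp from the end of HNRNPDL to the start of HNRNPD. HNRNPDL (ENSSSCG00000037245, chromosome 8 from 135802894 to 135809866) was at 38.7, 48.4 and 40.6 FPKM in the sham samples and at 62.7, 57.8 and 45.5 FPKM in the DAC samples. DAC replicate 6 lay below sham replicate 2, so the groups overlapped. The mean was 42.6 ± 5.16 FPKM (SD, n = 3) in sham and 55.3 ± 8.84 FPKM (SD, n = 3) in DAC, and the log2 fold change was 0.36 (SE 0.15, adjusted P = 0.585 from limma). It lost this call leaving out either sham replicate 1, sham replicate 3, DAC replicate 4 or DAC replicate 5, with log2 fold changes between 0.27 and 0.33, and with the variance of each gene on its own. HNRNPD, or AUF1, which binds AU-rich elements and speeds mRNA decay, was at 37.1, 43.1 and 38.0 FPKM in the sham samples and at 58.1, 42.5 and 39.1 FPKM in the DAC samples. Its high value was DAC replicate 4 alone, and its log2 fold change was 0.22 (adjusted P = 0.718, limma).

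The A and B type hnRNPs are the most abundant hnRNPs and are known as repressors of exon inclusion. HNRNPA1 (ENSSSCG00000000288, chromosome 5 from 19485096 to 19491419) was at 124, 119 and 120 FPKM in the sham samples and at 161, 159 and 119 FPKM in the DAC samples. DAC replicates 4 and 5 stood well above the narrow sham range, and DAC replicate 6 lay just under it. The log2 fold change was 0.26 (SE 0.14, adjusted P = 0.640 from limma). HNRNPA1 became an upregulated DEG without DAC replicate 6 (log2 fold change 0.40, adjusted P = 0.483, limma) and after quantile normalization (0.36, adjusted P = 0.618, limma). HNRNPA2B1 (ENSSSCG00000036350, chromosome 18 from 46205418 to 46215858) was at 93.95, 108 and 90.6 FPKM in the sham samples and at 133, 111 and 95.1 FPKM in the DAC samples, a log2 fold change of 0.20 (adjusted P = 0.714, limma). HNRNPA3 was at 32.1, 42.8 and 33.0 FPKM in the sham samples and at 59.1, 45.0 and 40.0 FPKM in the DAC samples. Its log2 fold change of 0.40 was the largest of the hnRNP genes (SE 0.18, adjusted P = 0.593 from limma). HNRNPA0, in contrast, was at 14.4 ± 0.727 FPKM (SD, n = 3) in sham and 14.2 ± 1.63 FPKM (SD, n = 3) in DAC.

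The other hnRNP genes had smaller differences. The log2 fold changes of HNRNPR, HNRNPM, HNRNPC, HNRNPU, HNRNPLL, HNRNPK and HNRNPUL1 were between 0.066 and 0.22, and the 95% confidence interval of each included 0. HNRNPC, which binds uridine runs, was lowest in DAC replicate 4, with 24.1, 22.6 and 22.8 FPKM in sham and 22.5, 28.6 and 27.1 FPKM in DAC. PTBP1, the polypyrimidine tract protein of most tissues, was at 13.2 ± 0.686 FPKM (SD, n = 3) in sham and 12.9 ± 0.814 FPKM (SD, n = 3) in DAC. PTBP2, its paralog best known from neurons, was at 3.40 ± 0.468 FPKM (SD, n = 3) in sham and 3.35 ± 0.155 FPKM (SD, n = 3) in DAC. A further 2 hnRNP genes, HNRNPL and HNRNPUL2, have no symbol in the deposited table and were named by a table of gene identifiers. The DAC mean was the lower one in both, with log2 fold changes of -0.031 (adjusted P = 0.952, limma) for HNRNPL at 78.9 FPKM in sham and -0.17 (adjusted P = 0.758, limma) for HNRNPUL2.

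For 10 of the 16 genes with an HNRNP symbol the highest sample was DAC replicate 4 and for 6 it was DAC replicate 5, against 19.3% and 14.9% of all genes tested. Single genes went other ways, as HNRNPC was lowest in DAC replicate 4 and HNRNPA0 lowest in DAC replicate 5. The median deviation of the 16 genes from the sham mean, on the log2 scale, was 0.35 in DAC replicate 4, 0.19 in DAC replicate 5 and 0.017 in DAC replicate 6. In the sham samples it was -0.0078, 0.093 and -0.070. DAC replicate 4 lay above all sham samples in 11 of the 16 genes, DAC replicate 5 in 12 and DAC replicate 6 in 3, while 12 of the 16 genes lay within the sham range in DAC replicate 6. Over all genes tested these minipigs lay above all sham samples in 28.3%, 24.4% and 28.1%. With the mitochondrially encoded genes left out and the rest rescaled, all 18 genes with an HNRNP or PTBP symbol had a higher mean in DAC. RALY, an hnRNP without such a symbol, had a log2 fold change of -0.48 in that setting. HNRNPL and HNRNPUL2 are not among the 18. In the same setting the share of all genes tested with a higher DAC mean was 54.3%, against 46.6% before, and the median of all genes was 0.020.

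**Figure D4:**
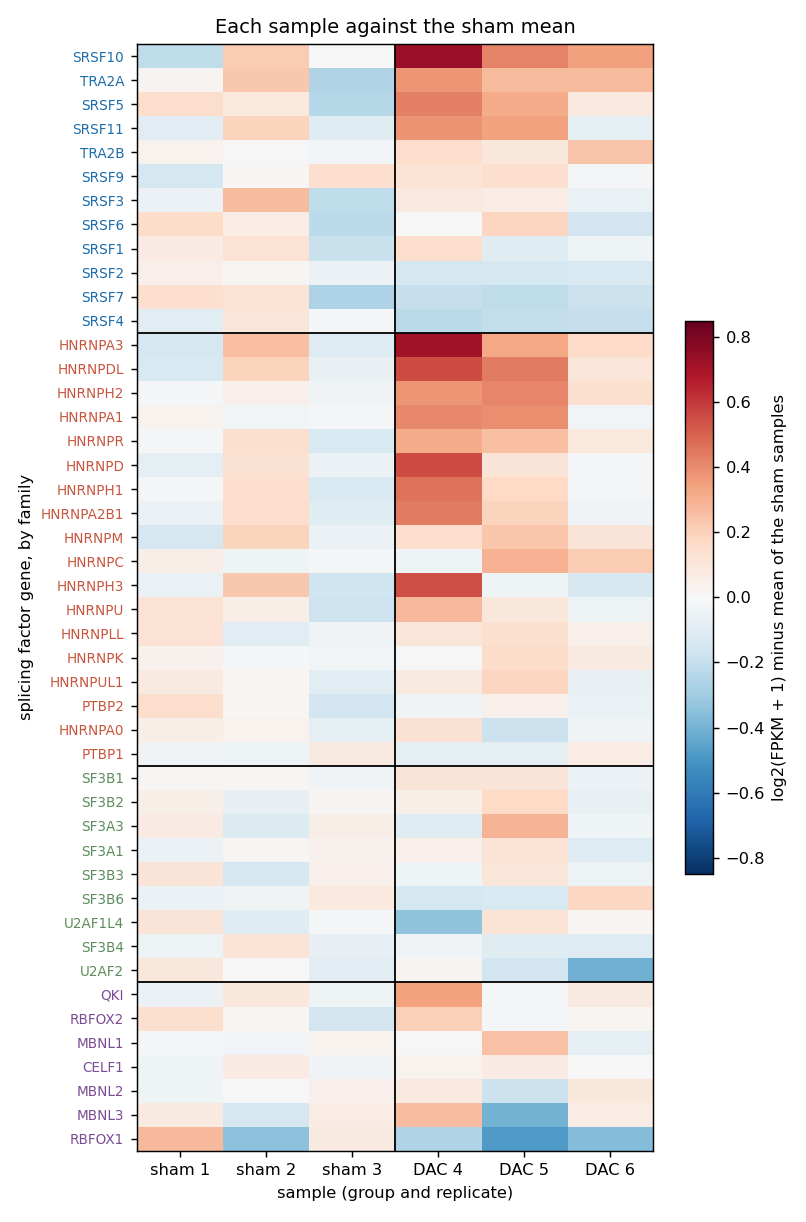
Deviation of each sample from the sham mean of the gene, on log2(FPKM + 1), for the 46 genes tested, with families separated by lines and higher values in red. The columns of DAC replicates 4 and 5 are mostly red among the hnRNP genes, that of DAC replicate 6 is pale, and the row of RBFOX1 is blue in all 3 DAC samples and in sham replicate 2.

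The recognition of the 3′ splice site and branch point had log2 fold changes from -0.18 to 0.057. By limma at an unadjusted P under 0.05, 0 of its 9 genes were DEGs, in all 6 samples or with any minipig left out, and their lowest adjusted P over all 6 samples was 0.716. With 3.25% of all genes tested upregulated and 5.27% downregulated, a count of 0 among 9 genes is near the background. U2AF2, which binds the polypyrimidine tract, had the largest difference. U2AF2 (ENSSSCG00000034815, chromosome 6 from 59774078 to 59789396) was at 44.3, 41.5 and 38.8 FPKM in the sham samples and at 42.1, 37.0 and 30.9 FPKM in the DAC samples. DAC replicate 6 was the lowest, the groups overlapped, and the log2 fold change was -0.18 (95% confidence interval -0.50 to 0.14, adjusted P = 0.716 from limma).

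The 7 SF3A and SF3B genes, which encode the U2 particle subunits that hold the branch point, had log2 fold changes between -0.082 and 0.057. SF3A1 (ENSSSCG00000010002, chromosome 14 from 47312464 to 47335398) was at 30.6, 31.9 and 32.6 FPKM in sham and at 32.6, 34.5 and 29.3 FPKM in DAC, with a 95% confidence interval of the log2 fold change from -0.23 to 0.26. SF3B4 (ENSSSCG00000006665, chromosome 4 from 99123585 to 99129218) was at 25.6, 28.7 and 25.1 FPKM in sham and at 25.8, 24.5 and 24.4 FPKM in DAC. SF3B1, the subunit that clamps the branch helix, was at 24.2 ± 0.411 FPKM (SD, n = 3) in sham and 25.3 ± 1.61 FPKM (SD, n = 3) in DAC, and its interval was from -0.17 to 0.29. U2AF1, the small U2AF subunit, has no symbol in the table. Its row, named by identifier, was at 16.4 ± 0.921 FPKM (SD, n = 3) in sham and 17.6 ± 2.53 FPKM (SD, n = 3) in DAC.

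Of the muscle and developmental regulators, none was a DEG by limma in all 6 samples. RBFOX1, the RBFOX gene of muscle and neurons, had the largest negative log2 fold change of all 46 genes. RBFOX1 (ENSSSCG00000007917, chromosome 3 from 34939572 to 37209658) was at 15.6, 9.76 and 13.5 FPKM in sham replicates 1 to 3 and at 10.5, 8.83 and 9.64 FPKM in DAC replicates 4 to 6. The DAC samples lay close together, and sham replicate 2 lay among them, so the groups overlapped. The mean was 12.9 ± 2.96 FPKM (SD, n = 3) in sham and 9.66 ± 0.836 FPKM (SD, n = 3) in DAC, and the log2 fold change was -0.37 (SE 0.17, 95% confidence interval -0.77 to 0.037, adjusted P = 0.596 from limma). Without sham replicate 2 it was -0.54 and RBFOX1 was a downregulated DEG (adjusted P = 0.404, limma), while with any other single minipig left out it was not, and its log2 fold change was between -0.42 and -0.23.

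RBFOX2, the paralog that binds the same motif, was at 23.6, 21.8 and 19.2 FPKM in the sham samples and at 24.8, 21.3 and 21.7 FPKM in the DAC samples, a log2 fold change of 0.070 (adjusted P = 0.885, limma). The ratio of RBFOX1 to RBFOX2, chosen after the values were seen, was 0.660, 0.449 and 0.702 in the sham samples and 0.423, 0.414 and 0.443 in the DAC samples. All DAC ratios were below all sham ratios, though sham replicate 2 lay close to the DAC samples, and the ratio is given as a description. RBFOX3, a neuronal gene known as NeuN, was at 0.0570, 0.0220 and 0.0160 FPKM in sham and at 0.352, 0.717 and 0.0903 FPKM in DAC. It was too low to be tested with the others, and with no minimum on FPKM its log2 fold change was 0.40 (adjusted P = 0.620 from limma).

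The muscleblind and CELF proteins act in opposite directions on many heart exons. MBNL1 (ENSSSCG00000011720, chromosome 13 from 92491808 to 92696233) was at 25.3, 25.02 and 26.0 FPKM in the sham samples and at 25.5, 30.4 and 24.1 FPKM in the DAC samples. Its share of the summed MBNL FPKM was 68.7% ± 0.393 (SD, n = 3) in sham and 69.5% ± 5.85 (SD, n = 3) in DAC, where DAC replicate 5 was at 76.3%. In that minipig MBNL2 and MBNL3 had their lowest values, 7.51 and 1.96 FPKM. MBNL2 was at 8.66 ± 0.263 FPKM (SD, n = 3) in sham and 8.70 ± 1.03 FPKM (SD, n = 3) in DAC, and MBNL3 was at 2.91 ± 0.321 FPKM (SD, n = 3) and 2.90 ± 0.872 FPKM (SD, n = 3). CELF1, the CELF gene with a symbol in the table, was at 13.3, 14.3 and 13.3 FPKM in sham and at 13.9, 14.3 and 13.7 FPKM in DAC. Its 95% confidence interval, from -0.19 to 0.25, was among the narrowest of the 46 genes, and its position is overlapped along nearly its whole length by PSMC3 on the same strand.

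QKI (ENSSSCG00000004029, chromosome 1 from 4735513 to 4883768), which also promotes the formation of circular RNAs, was at 42.3, 46.7 and 42.4 FPKM in the sham samples and at 55.7, 43.3 and 46.2 FPKM in the DAC samples. DAC replicate 4 was high, the other DAC samples were within the sham range, and the log2 fold change was 0.13 (SE 0.12, adjusted P = 0.775 from limma).

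**Figure D5:**
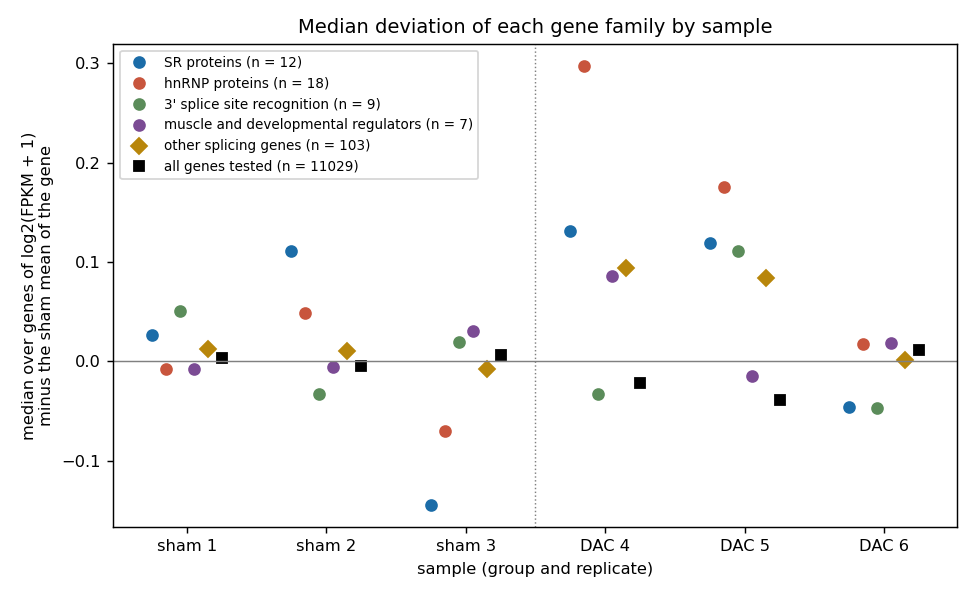
Median over the genes of each family of the deviation from the sham mean, on log2(FPKM + 1), for every sample, with the other splicing genes and all genes tested for comparison. The hnRNP median was 0.30 in DAC replicate 4 and 0.18 in DAC replicate 5, the other DAC medians of the 4 families were at most 0.13, and the medians of all genes stayed between -0.039 and 0.011.

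Over the 46 genes tested, DAC replicate 4 was the highest sample for 18, DAC replicate 5 for 15 and DAC replicate 6 for 3. All DAC samples lay above all sham samples for 4 genes, or 8.70% against 6.01% of all genes tested, namely SRSF10, TRA2A, TRA2B and HNRNPH2. They lay below for 2 genes, or 4.35% against 8.91%, namely SRSF2 and SRSF4. These 6 genes include 5 of the 12 SR genes, 3 of them above and 2 below, against 6.01% and 8.91% of all genes tested. The SR genes below include SRSF4, whose value is of uncertain identity. Whether the SR genes differ from all genes in these counts was not tested. The 47 genes lie on 18 chromosomes, and 3 pairs are within 1 Mb of each other, HNRNPD with HNRNPDL, HNRNPR with SRSF10, and SRSF7 with HNRNPLL. A position that overlaps another listed gene was found for 13 of the 47.

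The rest of the splicing machinery was followed with a list of 115 other genes, of which 103 were tested. Of these, 0 were upregulated DEGs and 3 were downregulated DEGs by limma at an unadjusted P under 0.05, or 2.91% against 5.27% of all genes tested. For the upregulated direction the share over all genes was 3.25%. The variance of each gene on its own gave 5 upregulated and 6 downregulated DEGs, or 4.85% and 5.83%. In that setting the shares over all genes tested were 3.25% and 4.81%. A higher mean in DAC was found in 70 of the 103 genes, or 68.0%, with a median log2 fold change of 0.058. These values were 73.9% and 0.063 for the 46 splicing factor genes, and 46.6% and -0.016 over all genes tested. By part, the 55 genes of the core spliceosome had a median of 0.031 with 0 DEGs, and the 38 other regulators had a median of 0.092. DAC replicates 4 and 5 were the highest sample for 37 and 30 of the 103 genes, and DAC replicate 6 for 5, the same order as in the splicing factors.

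The downregulated genes were RALY, RBM38 and CLK3. RALY, an hnRNP of the C type without an HNRNP symbol, was at 11.99, 8.31 and 10.3 FPKM in the sham samples and at 7.06, 6.06 and 7.20 FPKM in the DAC samples. Its log2 fold change was -0.52 (SE 0.15, adjusted P = 0.5001 from limma), and it was a downregulated DEG with any of the minipigs left out. RBM38, a p53 target that stabilizes transcripts and takes part in muscle differentiation, was at 92.4, 102 and 83.6 FPKM in sham and at 69.1, 63.1 and 78.5 FPKM in DAC, a log2 fold change of -0.40 (adjusted P = 0.522, limma). Leaving out sham replicate 2 ended this call, with a log2 fold change of -0.33. CLK3, a kinase that phosphorylates SR proteins, was at 3.94, 4.25 and 4.32 FPKM in sham and at 2.67, 3.54 and 2.94 FPKM in DAC, a log2 fold change of -0.36 (adjusted P = 0.522, limma). Leaving out sham replicate 2, sham replicate 3 or DAC replicate 4 ended the call for CLK3, with log2 fold changes between -0.35 and -0.29. In all 3 genes, which were picked by their P, every DAC sample was below every sham sample. Of the 103 genes, 7 were separated in this direction, or 6.80% against 8.91% of all genes tested. Another 8 had every DAC sample above every sham sample, or 7.77% against 6.01%. The other 9 SR protein kinases and transport genes of the list were not DEGs.

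A list of genes with transcripts alternatively spliced in muscle held 19 tested genes, and which factor splices each was not examined here. Among these 19 genes, 1 was an upregulated DEG and 1 a downregulated DEG. This is 5.26% in each direction, against 3.25% and 5.27% of all genes tested. These shares rest on a single gene each. The list had a median log2 fold change of -0.13, or -0.21 without DAC replicate 6. MEF2A, a muscle transcription factor, was at 30.3, 30.2 and 28.8 FPKM in the sham samples and at 40.7, 33.3 and 36.2 FPKM in the DAC samples, without overlap. Its log2 fold change was 0.29 (SE 0.11, adjusted P = 0.563 from limma), and it kept this call with DAC replicate 5 left out but with none of the other minipigs left out, where the log2 fold change was between 0.22 and 0.30. RYR2, the calcium release channel of the sarcoplasmic reticulum, was at 424, 293 and 380 FPKM in sham and at 308, 234 and 279 FPKM in DAC, with overlap. Its log2 fold change was -0.41 (adjusted P = 0.585 from limma), and leaving out sham replicate 1, sham replicate 3, DAC replicate 5 or DAC replicate 6 ended the call, with log2 fold changes between -0.43 and -0.30. RBM20, RBM24 and TTN were not analysed here.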

How the data were processed

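The authors deposited FPKM values of ventricular RNA in 1 table, for 3 sham and 3 DAC minipigs, 1 column per minipig, from libraries of a NEBNext Ultra kit. The submitters' processing notes name HISAT2 and susScr11, and the program that made the FPKM values is not given in the sources used here. FPKM gives no read number, so precision rests on the spread between minipigs. Groups came from the sample titles, and no column was left out.

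With R 4.3.3 and limma 3.58.1, log2(FPKM + 1) was fitted for genes reaching 1 FPKM in 3 or more of 6 samples, with a variance trend and Benjamini-Hochberg adjustment over all 11029 genes. Exact tests of ratios used all 20 splits. Figures used Python 3.11.15 and matplotlib 3.10.9. On simulated data of 11029 genes with 200 changed by 1 on the log2 scale, 188 were called, as were 5.23% of the unchanged genes. Smaller changes, such as those reported here, were not simulated. By rule, the values in every sample were given for DEGs and, in each family, for the 2 genes with the smallest P and the 2 most abundant. Every gene could be named with its level. Outside this rule, values in every sample were also given for TRA2B, SRSF4, SRSF7, SRSF11, HNRNPH1, HNRNPD, HNRNPA3, HNRNPC, RBFOX2, RBFOX3 and CELF1. The genes and lists were chosen with earlier results of these data known. Alternatives were no minimum, a minimum of 5 FPKM, a pseudocount of 0.1, median scaling, quantile normalization, mitochondrially encoded genes left out, the variance of each gene on its own, and each minipig left out. All 47 symbols were found in RefSeq for Sscrofa11.1 at an overlapping position.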

Additional observations from a re-analysis of the deposited data

How the results depend on the processing

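No paired analysis was possible because the sham and DAC samples share no replicate number. The splicing factor genes gave 3 upregulated DEGs in all 6 samples, 5 after quantile normalization, 5 leaving out mitochondrially encoded genes, and from 0 to 6 with 1 minipig left out. Downregulated DEGs were 0 in all 6 samples, 2 with the variance of each gene on its own, and from 0 to 1 with 1 minipig left out. Their median log2 fold change of 0.063 was 0.11 after quantile normalization, 0.11 leaving out mitochondrially encoded genes, and from 0.043 (without sham replicate 3) to 0.11 (without DAC replicate 6) with 1 minipig left out. The other splicing genes gave 0 upregulated DEGs in all 6 samples, 1 after median scaling, 2 after quantile normalization, 3 with mitochondrially encoded genes left out, 5 with the variance of each gene on its own, and from 0 to 4 with 1 minipig left out. Their 3 downregulated DEGs were 6 with the variance of each gene on its own and from 1 to 4 with 1 minipig left out, and their median was 0.10 with mitochondrially encoded genes left out. For the transcripts spliced in muscle, the 1 upregulated DEG was from 0 to 1 with 1 minipig left out. The 1 downregulated DEG was 0 after quantile normalization, with mitochondrially encoded genes left out or with the variance of each gene on its own, and from 0 to 3 with 1 minipig left out. Their median was -0.061 after quantile normalization and from -0.21 to -0.095 with 1 minipig left out, the lowest without DAC replicate 6. The cause of these moves was not tested. Of all genes tested, 3.97% were upregulated DEGs after median scaling and 3.79% after quantile normalization. The upregulated share was 4.56% without mitochondrially encoded genes and 3.25% with the variance of each gene on its own. Downregulated shares were 4.25% after quantile normalization, 3.70% without mitochondrially encoded genes and 4.81% with the variance of each gene on its own. With 1 minipig left out, they were from 2.19% to 4.26% upregulated and from 3.26% to 6.11% downregulated. Of the genes followed singly, the sign changed for SF3A1, at -0.0079 leaving out sham replicate 1 and from -0.035 to 0.079 over all minipigs left out in turn, and for MBNL1, from -0.037 leaving out DAC replicate 5 to 0.13. Adding the 3 genes named by identifier, or leaving out SRSF4, alternatives chosen after seeing the data, left 3 upregulated and 0 downregulated DEGs. The unknown read depth limits what can be said of RBFOX3 and other genes near 1 FPKM.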
